A study of Mus musculus with 6 samples.

Results

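The clustered protocadherins are the 58 genes of the alpha, beta and gamma protocadherin clusters among the 52550 genes of the count table. They were chosen by symbol alone, with no measured value. The alpha cluster held 14 of them, of which Pcdhac1 and Pcdhac2 are the C-type members. The beta cluster held 22, and the gamma cluster held 22, which are 12 gamma A, 7 gamma B and 3 C-type members (Pcdhgc3, Pcdhgc4 and Pcdhgc5). In the mouse genome GRCm38 all lie on the plus strand of chromosome 18, the alpha members at chr18:36930184-37187661, the beta members at chr18:37264938-37524479 and the gamma members at chr18:37661793-37841873. The symbol Pcdha11 belonged to 2 Ensembl genes, of which ENSMUSG00000007440 starts at chr18:37005203 and ENSMUSG00000102206 at chr18:37010712.

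Hippocampal RNA of 3 control libraries and 3 libraries labelled L-DL KD was compared. All mice were male C57BL/6 J, injected with adeno-associated virus in the CA1 area of both hemispheres when 8 weeks old, and behaviour was tested 4 weeks later. The control virus carried a control shRNA. The L-DL KD virus carried 4 shRNAs in a row, each driven by the H1 promoter, against the long isoform of hnRNP DL (L-DL), a splicing factor of nuclear speckles. The vectors also held a zsGreen reporter behind the CamkIIα promoter, which acts in excitatory neurons, and the titre given for the control virus was the higher of the 2. The labels call the modified mice knockouts in the description and knockdowns in the genotype field. They do not say that each library came from a separate mouse, so p-values measure the spread between these libraries.

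Clustered protocadherins are cell surface adhesion proteins of neurons and some other cells. Each neuron switches on a few of them by promoter choice, and the resulting combination binds like to like between membranes, by which branches of the same neuron recognise and avoid each other. In the alpha and gamma clusters each member has its own promoter and 1 large variable exon, which codes for the whole extracellular part and is spliced to constant exons that all members of the cluster share. Beta members are single large exons with no constant part. The C-type members lie at the end of the alpha and gamma clusters and are switched on more regularly across neurons than the others.

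The sharing of constant exons bears on what could be counted for each member. In the annotation, 48.6 to 93.0% of the exon bases of alpha members (median 53.6%) and 31.5 to 100% of those of gamma members (median 45.3%) also belonged to another gene, while 3 of 22 beta members shared any. The predicted genes Gm37013, Gm37388, Gm38182 and Gm42416, which hold the constant exons too, had 0 counts in every library. Pcdhga10 also had 0 counts in all 6 libraries. It has 2613 exon bases that no other member shares but 0 that no other gene shares. Gm26672 on the opposite strand overlaps it. Pcdha4 had 0 to 2 counts per library, with 2904 bases that no other member shares and 404 that no other gene shares. Gm38225 on the opposite strand overlaps Pcdha4. The counts of alpha and gamma members thus stood for their variable exons, and a count of 0 for Pcdhga10 says nothing of its expression. Similar sequence was looked for among the members' transcripts only. Of the 150-base stretches, the length of a read, in exon that no other member shares, at most 5.74% of those of a member occurred in more than 1 place (Pcdhgb1 and Pcdhgb2), and 38 members had none. Whether counting used strand was not stated. How reads in bases shared with a gene on the opposite strand were counted is thus not known for certain. Leaving such reads out would give low counts for Pcdhga10 and Pcdha4, and this was not tested. At Pcdhgc3 the gene on the opposite strand was BC037039, with 2 to 10 counts per library. At Pcdhgb7, Pcdhga11 and Pcdhga12 it was Gm26672, with 4 to 11. Of the 2594 exon bases of Pcdhgb7 that no other member shares, 1823 were shared with no other gene. For Pcdhga11 it was 1256 of 2637.

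Library totals ran from 16052529 to 16995425 counts in the controls and from 16525467 to 17913064 in libraries labelled L-DL KD. Hnrnpdl, the targeted gene, had 2862, 3120 and 2689 counts in the controls and 3939, 2680 and 2904 in libraries labelled L-DL KD. Its log2 fold change was 0.03 (SE 0.12, adjusted p = 0.898, edgeR), which did not pass the test, and the count does not separate its isoforms. Markers of CA1, CA3 and dentate gyrus neurons were all detected, as the tissue label says. All 10 microglia markers were higher in libraries labelled L-DL KD (1391 to 1740 CPM summed in the controls, 2911 to 3791 CPM there). CPM are counts per 1000000 counts of the library after TMM scaling. Of 13 general neuronal markers 11 were lower and 2 higher (6668 to 6990 CPM and 4828 to 5470 CPM). By edgeR at an adjusted p under 0.05, 15.6% of all genes were higher and 15.0% lower. Of the other markers, 1 of 8 was higher and 3 lower for CA1, 1 of 6 and 4 for CA3, 2 of 7 and 2 for dentate granule cells, 0 of 8 and 4 for interneurons, 1 of 8 and 0 for oligodendrocytes, 5 of 6 and 0 for their precursors, and 3 of 6 and 0 for endothelium. These shifts move with every difference given here, and their part in them was not tested. Markers of the choroid plexus varied within both groups, from 442.0 to 4675 CPM in the controls and from 39.16 to 5249 CPM in libraries labelled L-DL KD.

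Of the 58 members, 53 had at least 10 counts in at least 3 libraries and were tested. Of these, 3 gamma members rose in libraries labelled L-DL KD (Pcdhgb7, Pcdhgc3 and Pcdhgb6), the alpha member Pcdhac2 fell, and 49 did not pass the test. No beta member passed. The quasi-likelihood test of edgeR was used, with p-values adjusted by Benjamini-Hochberg over all 17621 genes tested and a threshold of 0.05. It called 7.55% of the tested members, against 30.5% of all genes (15.6% higher, 15.0% lower). At an unadjusted p under 0.05 the number of members was 12. The median log2 fold change was -0.02 over the members and 0.01 over all genes. All 3 libraries of one group lay above all 3 of the other for 16 of 53 members (30.2%, 8 in each direction), against 47.2% of all genes (23.8% higher, 23.4% lower). Most members had modest counts. Between the 10th and 90th percentile of the members' mean counts (33.4 to 204.0 counts per library), 20.9% of all genes were called, and 1 of the 41 members in that range. Since the RNA was of bulk tissue, fewer cells of a type and less RNA per cell cannot be told apart.

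**Figure D1:**
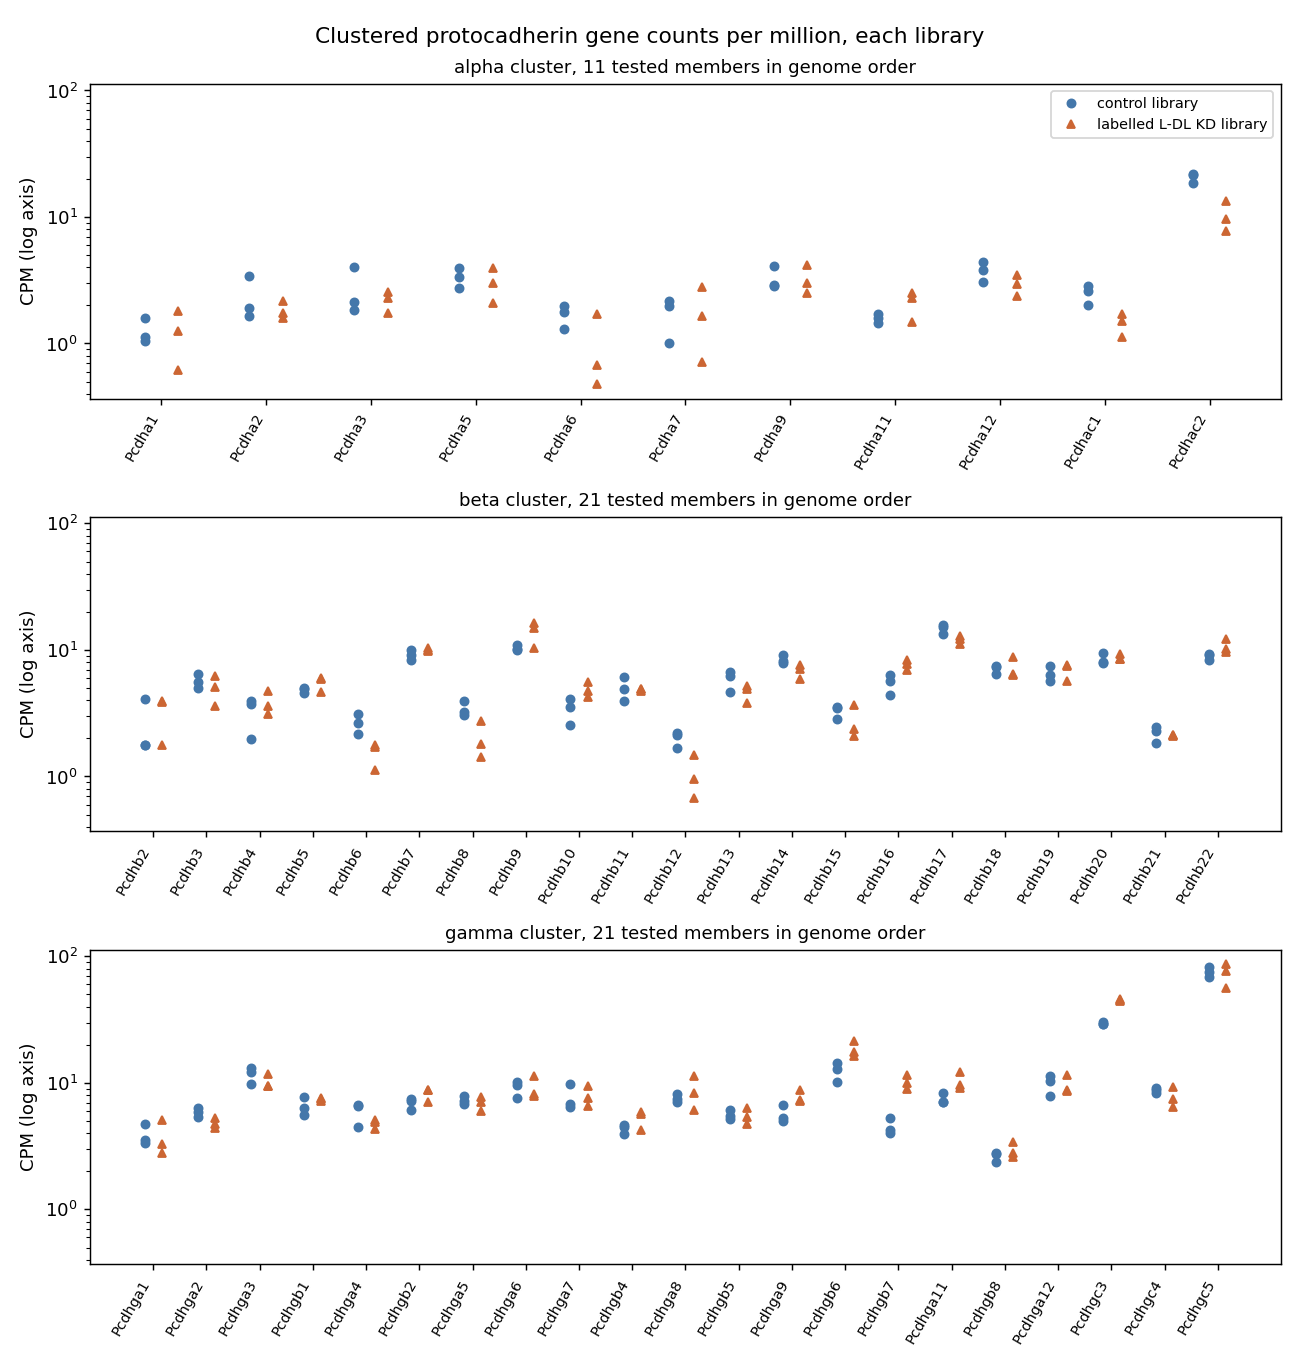
CPM (log axis) of the 53 tested members in each library, in genome order within the alpha, beta and gamma clusters. Circles are the 3 control libraries and triangles the 3 libraries labelled L-DL KD. Pcdhgc5 and Pcdhgc3 stand above all other members, and Pcdhac2 stands above all other alpha members.

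Untested members had few counts. Pcdha8 had 2 to 6 counts per library and Pcdhb1 0 to 3. Pcdha11 (ENSMUSG00000102206) had 0 counts in 5 libraries and 1 in the other. At such counts no difference was detectable, and absence of the transcripts cannot be read from them.

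The levels of members can be compared per length of their unshared exons. In the controls, Pcdhgc5 had 16.4 and Pcdhgc3 16.2 CPM per unshared kb, and Pcdhac2 followed with 6.83. The median was 0.97 CPM per unshared kb in the alpha cluster, 1.18 in the beta cluster and 2.51 in the gamma cluster. In libraries labelled L-DL KD, Pcdhgc3 had 24.9 CPM per unshared kb and Pcdhgc5 had 15.97. The order of these 2 depended on the length used, since part of the exon of Pcdhgc3 is shared with BC037039. Per kb of exon that no other member shares, an alternative added after the data were seen, Pcdhgc3 had 8.71 CPM in the controls and 13.4 in libraries labelled L-DL KD, and Pcdhgc5 had 13.7 and 13.36. The cluster medians there were 0.839, 1.25 and 2.97 CPM per unshared kb for alpha, beta and gamma.

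The C-type members went in different directions. Pcdhgc3, a gamma protocadherin also made by astrocytes and the choroid plexus, rose 1.54-fold. It had 29.3, 30.1 and 29.0 CPM in the controls and 44.3, 45.4 and 46.2 CPM in libraries labelled L-DL KD. Both groups were tight and lay far apart. The log2 fold change was 0.62 (SE 0.07, adjusted p = 0.000839, edgeR), and between 0.61 and 0.64 with any single library left out. The summed CPM of 8 astrocyte markers was lower in libraries labelled L-DL KD (7909 to 8058 against 6152 to 7309), with 1 marker higher and 3 lower by the test. The part of these cells in the rise of Pcdhgc3 was not tested.

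Pcdhac2, an alpha protocadherin known for spacing out the axons of serotonergic neurons, fell by 1.01 on the log2 scale (SE 0.20, adjusted p = 0.00696, edgeR). It had 21.6, 18.5 and 22.0 CPM in the controls and 13.4, 9.59 and 7.81 CPM in libraries labelled L-DL KD. All 3 of the latter were below all controls, and the highest of them was labelled replicate 1. Pcdhac1, the other alpha C-type member, had 2.59, 2.00 and 2.86 CPM in the controls and 1.71, 1.51 and 1.13 CPM in libraries labelled L-DL KD. Its groups did not overlap either, but its log2 fold change of -0.77 (SE 0.29, 95% confidence interval -1.43 to -0.11) did not pass the adjustment (adjusted p = 0.0767, edgeR).

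Pcdhgc5, which binds GABA-A receptors at synapses, was the most abundant member by CPM and did not pass the test. It had 75.2, 69.2 and 82.3 CPM in the controls and 87.3, 77.0 and 56.4 CPM in libraries labelled L-DL KD. The libraries labelled L-DL KD lay on both sides of the controls. The log2 fold change was -0.04 (95% confidence interval -0.39 to 0.31, adjusted p = 0.874, edgeR), and 0.12 without L-DL KD replicate 3. Pcdhgc4, which is needed for the survival of neurons, had 8.75, 9.12 and 8.32 CPM in the controls and 9.20, 6.39 and 7.45 CPM in libraries labelled L-DL KD. The groups overlapped, with a log2 fold change of -0.18 (95% confidence interval -0.58 to 0.21, adjusted p = 0.456, edgeR).

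Side by side, Pcdhgc3 had 0.389, 0.434 and 0.353 counts per Pcdhgc5 count in the controls and 0.508, 0.589 and 0.819 in libraries labelled L-DL KD. The ratio was higher in all 3 of the latter. As a share of all gamma counts, Pcdhgc3 made up 12.4 ± 0.874% (SD, n = 3) in the controls and 17.0 ± 2.13% in libraries labelled L-DL KD. Pcdhgc5 made up 31.6 ± 1.13% and 27.2 ± 3.23%, with no overlap of the groups.

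**Figure D2:**
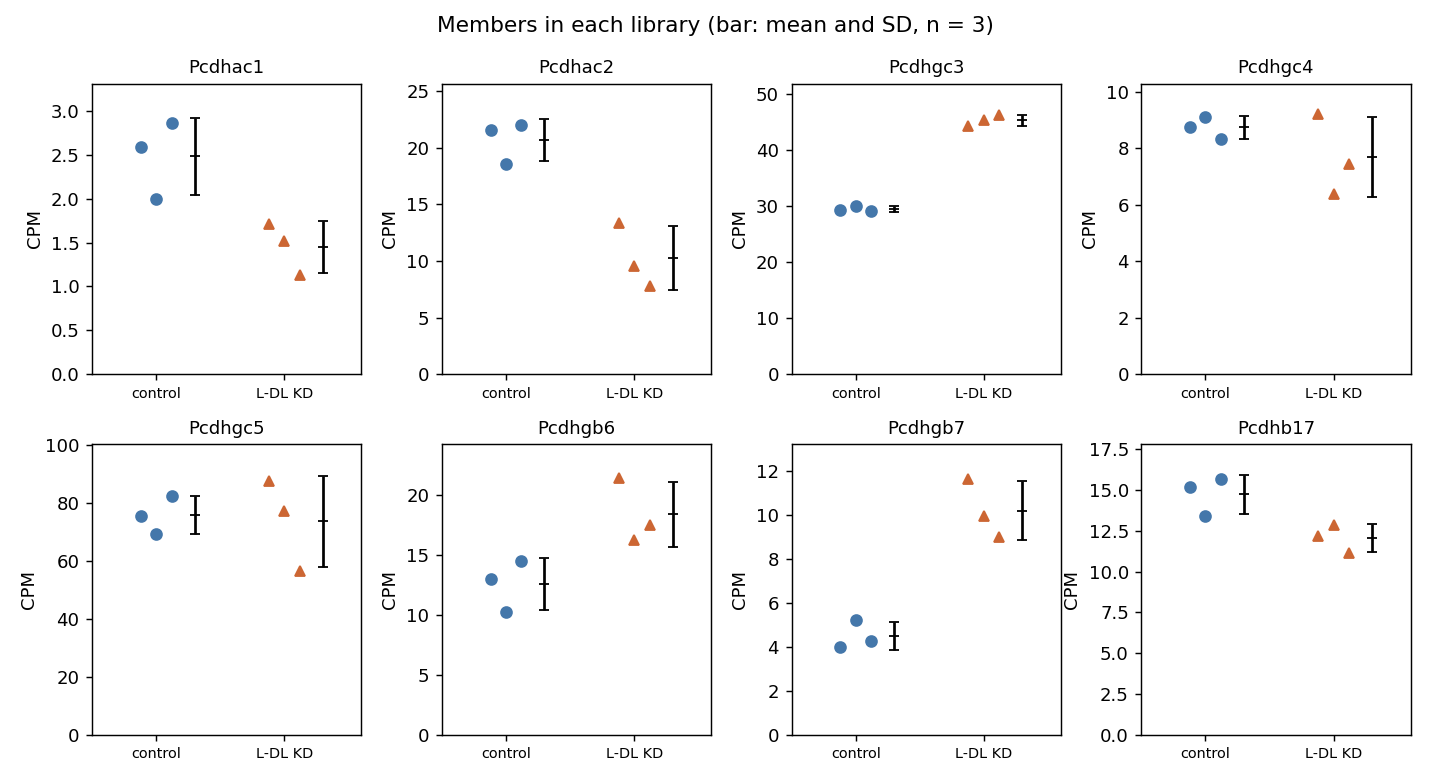
CPM (linear axes from 0) of the 5 C-type members, Pcdhgb6, Pcdhgb7 and Pcdhb17 in each library, with the mean and SD of each group (n = 3). The groups are apart for Pcdhac1, Pcdhac2, Pcdhgc3, Pcdhgb6, Pcdhgb7 and Pcdhb17, and they overlap for Pcdhgc4 and Pcdhgc5.

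Over the gamma cluster, 3 of 21 tested members rose and none fell, with a median log2 fold change of 0.04. That was 14.3% called, against 30.5% of all genes (15.6% higher, 15.0% lower). Among the gamma B members, whose variable exons lie interleaved with those of gamma A, 2 of 7 rose and none fell. Their share called, 28.6%, was near that of all genes. Pcdhgb7 showed the largest fold of the 53 tested members. It had 4.01, 5.24 and 4.25 CPM in the controls and 11.6, 9.98 and 8.999 CPM in libraries labelled L-DL KD, a rise of 2.26-fold (log2 1.18, SE 0.18, adjusted p = 0.00234, edgeR). The groups lay far apart. With any single library left out the log2 fold change stayed between 1.08 and 1.30.

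Pcdhgb6 had 12.9, 10.2 and 14.5 CPM in the controls and 21.4, 16.3 and 17.5 CPM in libraries labelled L-DL KD. It rose 1.47-fold (log2 0.55, SE 0.17, adjusted p = 0.0403, edgeR). This call rested on single libraries. The adjusted p was 0.0701 without L-DL KD replicate 1, 0.0624 without L-DL KD replicate 3, 0.0993 without control replicate 1 and 0.128 without control replicate 2, while the log2 fold change stayed between 0.42 and 0.66.

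Of the 5 other gamma B members, 4 had a positive and 1 a negative log2 fold change, and none passed the test. Pcdhgb2 had a log2 fold change of 0.25 (95% confidence interval -0.14 to 0.63). The lowest was Pcdhgb5 with -0.03. The median over the gamma B members was 0.25.

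None of the 11 tested gamma A members passed the test, and their median log2 fold change was -0.02. By mean CPM over all 6 libraries, the most abundant were Pcdhga3, Pcdhga12 and Pcdhga6. Pcdhga3 had 11.7 ± 1.73 CPM in the controls (SD, n = 3) and 10.2 ± 1.30 CPM in libraries labelled L-DL KD. Pcdhga12 had 9.85 ± 1.76 and 9.69 ± 1.67 CPM, and Pcdhga6 9.10 ± 1.33 and 9.18 ± 1.93 CPM. In libraries labelled L-DL KD alone, Pcdhga11 was higher, with 10.3 CPM. The log2 fold changes of Pcdhga3, Pcdhga12 and Pcdhga6 were -0.19, -0.02 and 0.01. Their confidence intervals together reached from -0.57 to 0.46. The sign of Pcdhga12 turned when libraries were scaled by their totals. In gamma A, Pcdhga9 (log2 0.45, adjusted p = 0.0957, edgeR) and Pcdhga11 (log2 0.47, adjusted p = 0.0666, edgeR) were higher in all 3 libraries labelled L-DL KD than in all controls, and Pcdhga2 (log2 -0.30, adjusted p = 0.228, edgeR) was lower. These 3 were named after their values were seen.

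**Figure D3:**
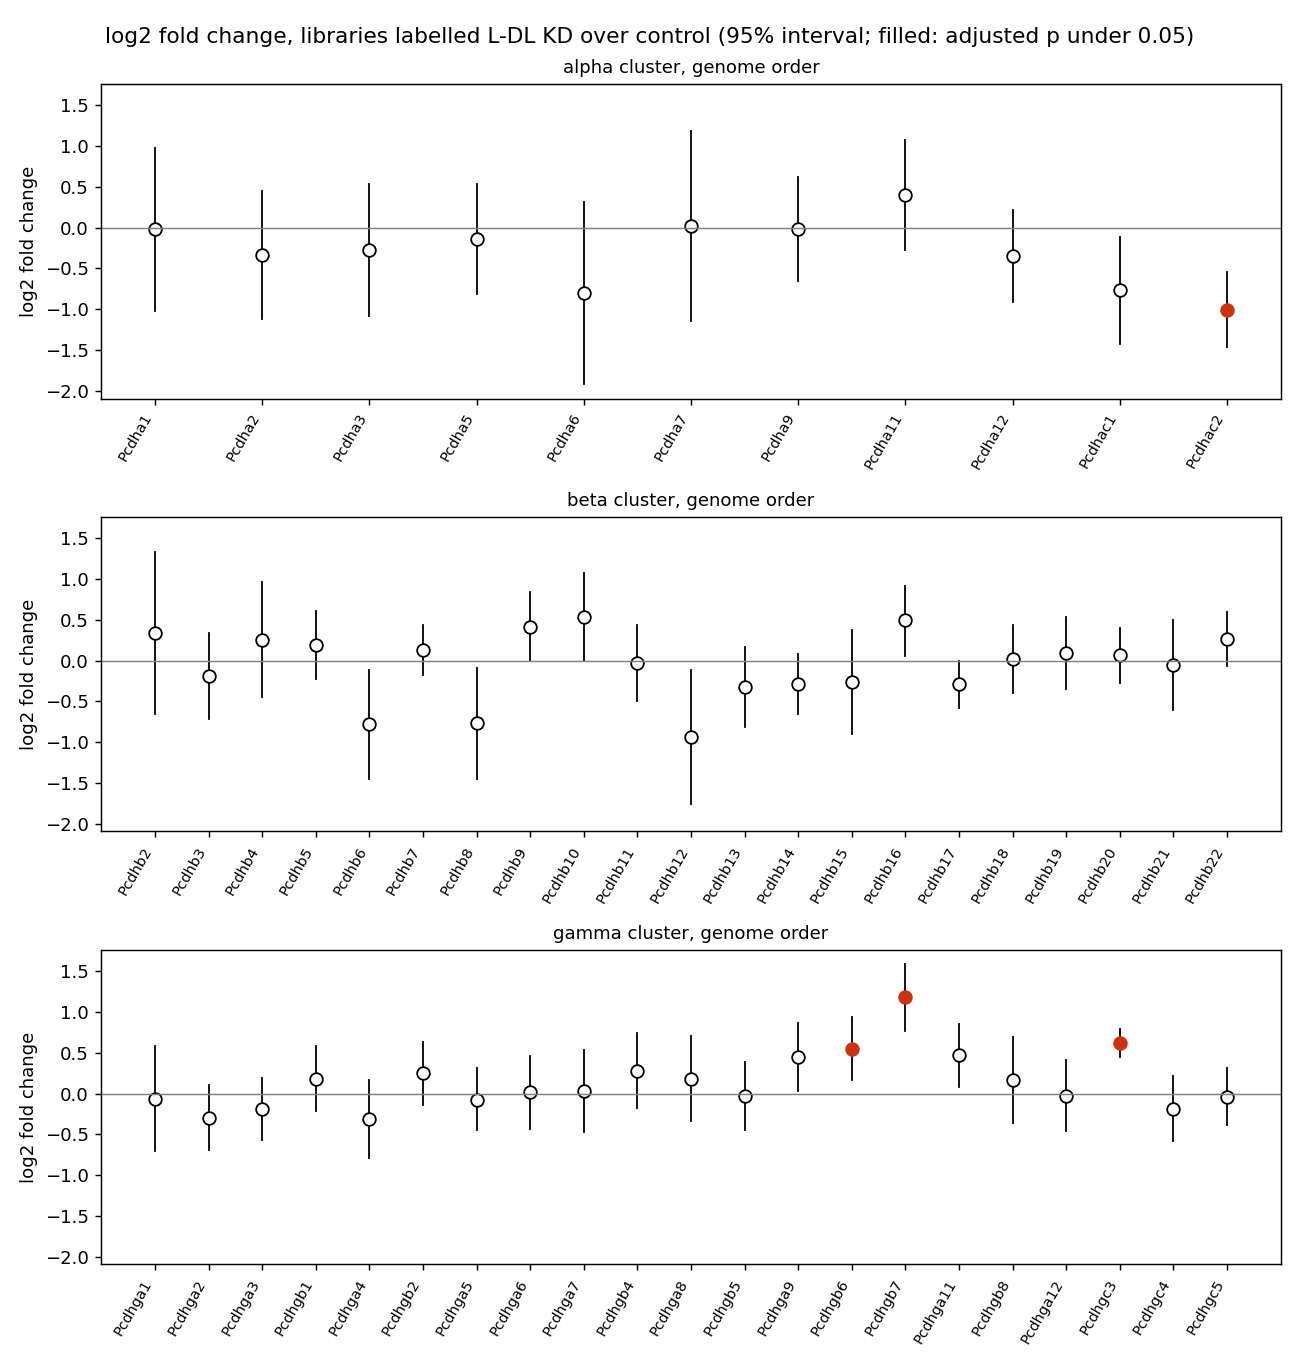
Fitted log2 fold change of each tested member, libraries labelled L-DL KD over control, with its 95% confidence interval, in genome order. Filled points have an adjusted p under 0.05: Pcdhac2 at -1.01, Pcdhgb6 at 0.55, Pcdhgb7 at 1.18 and Pcdhgc3 at 0.62.

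In the beta cluster 0 of 21 tested members passed edgeR's test, against 30.5% of all genes, and 5 had an unadjusted p under 0.05. DESeq2 called none either. The fitted log2 fold changes ran from -0.94 to 0.53 with a median of 0.02. Pcdhb17 had the highest mean CPM over all 6 libraries among beta members, while per unshared kb Pcdhb9 was higher (3.41 against 3.17 CPM in the controls). Pcdhb17 had 15.2, 13.4 and 15.7 CPM in the controls and 12.2, 12.8 and 11.1 CPM in libraries labelled L-DL KD. The groups did not overlap, and the log2 fold change of -0.29 (SE 0.13) had an adjusted p of 0.118 (edgeR). Pcdhb9 had 10.05, 11 and 10.2 CPM in the controls and 16.5, 14.9 and 10.3 CPM in libraries labelled L-DL KD. Its log2 fold change of 0.42 (SE 0.18) had an adjusted p of 0.124 and passed the test without L-DL KD replicate 3 (log2 0.59, adjusted p = 0.0191, edgeR). Pcdhb22 had 8.86 ± 0.525 CPM in the controls (SD, n = 3) and 10.7 ± 1.31 CPM in libraries labelled L-DL KD, with a log2 fold change of 0.27 and an adjusted p of 0.207 (edgeR).

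The groups did not overlap for 8 of the 21 beta members (38.1%), against 47.2% of all genes. In Pcdhb10, Pcdhb16 and Pcdhb22 all libraries labelled L-DL KD were higher, and in Pcdhb6, Pcdhb8, Pcdhb12, Pcdhb14 and Pcdhb17 all were lower. The lowest log2 fold changes were -0.94 in Pcdhb12, -0.78 in Pcdhb6 and -0.77 in Pcdhb8, all low in counts, with adjusted p-values of 0.082, 0.0781 and 0.0833 (edgeR). Pcdhb12 had 12 to 36 counts per library, or 2.00 ± 0.297 CPM in the controls (SD, n = 3) and 1.04 ± 0.414 CPM. Without L-DL KD replicate 1, Pcdhb8 and Pcdhb12 passed the test. Apart from Pcdhb17 and Pcdhb22, these beta members were named after their values were seen.

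In the alpha cluster 1 of 11 tested members passed the test, Pcdhac2 (9.09% called, against 30.5% of all genes). The median log2 fold change was -0.28, with 9 members negative and 2 positive, and it was 0.05 without control replicate 3. The most abundant members other than the C-types were Pcdha12, with 3.75 ± 0.667 CPM in the controls (SD, n = 3) and 2.95 ± 0.547 CPM in libraries labelled L-DL KD, Pcdha9 with 3.28 ± 0.733 and 3.24 ± 0.862 CPM, and Pcdha5 with 3.34 ± 0.607 and 3.03 ± 0.948 CPM. Their log2 fold changes were -0.35, -0.02 and -0.14. The sign of Pcdha9 turned when libraries were scaled by their totals. Confidence intervals of these 3 together reached from -0.91 to 0.62, and for each of them changes within its own interval were not excluded. None of the 9 alpha members other than the C-types had groups that did not overlap.

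Summed over members, the alpha cluster had 46.2, 39.8 and 49.3 CPM in the controls and 36.3, 32.6 and 24.8 CPM in libraries labelled L-DL KD. All 3 of the latter were lower, and the mean was 30.7% below that of the controls. This difference lay mostly in the C-type members, whose sum went from 23.2 ± 2.31 CPM (SD, n = 3) to 11.7 ± 3.12 CPM. The other alpha members summed to 21.9 ± 2.61 and 19.5 ± 3.19 CPM, with groups that overlapped. Pcdhac2 alone made up 46.0 ± 1.20% of the alpha counts in the controls and 32.6 ± 3.86% in libraries labelled L-DL KD.

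The beta cluster summed to 122.4, 123.3 and 123.6 CPM in the controls and 134.3, 126.6 and 115.8 CPM in libraries labelled L-DL KD, which lay on both sides. The gamma cluster summed to 240.2, 225.9 and 250.5 CPM in the controls and 293.6, 272.1 and 239.3 CPM in libraries labelled L-DL KD. The mean was 12.3% higher there, and the groups overlapped. Within it, gamma B had 43.1 ± 3.67 CPM in the controls (SD, n = 3) and 57.9 ± 5.45 CPM in libraries labelled L-DL KD, all 3 of them higher. Gamma A went from 82.0 ± 4.102 to 83.9 ± 8.09 CPM and the C-types from 113.8 ± 5.62 to 126.5 ± 15.5 CPM, and both overlapped.

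Relative to each other, the alpha and gamma clusters differed between the groups with no overlap. The alpha cluster held 11.3, 10.2 and 11.6% of all clustered protocadherin counts in the controls and 7.82, 7.57 and 6.53% in libraries labelled L-DL KD. The gamma cluster held 58.8, 58.1 and 59.2% in the controls and 63.2, 63.1 and 63.0% in libraries labelled L-DL KD. The beta cluster held 30.3 ± 1.29% (SD, n = 3) and 29.6 ± 0.802%, which overlapped. Shares of one total move together, so a lower alpha share and a higher gamma share are not separate observations. No test was made of these sums, which are scores over members.

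**Figure D4:**
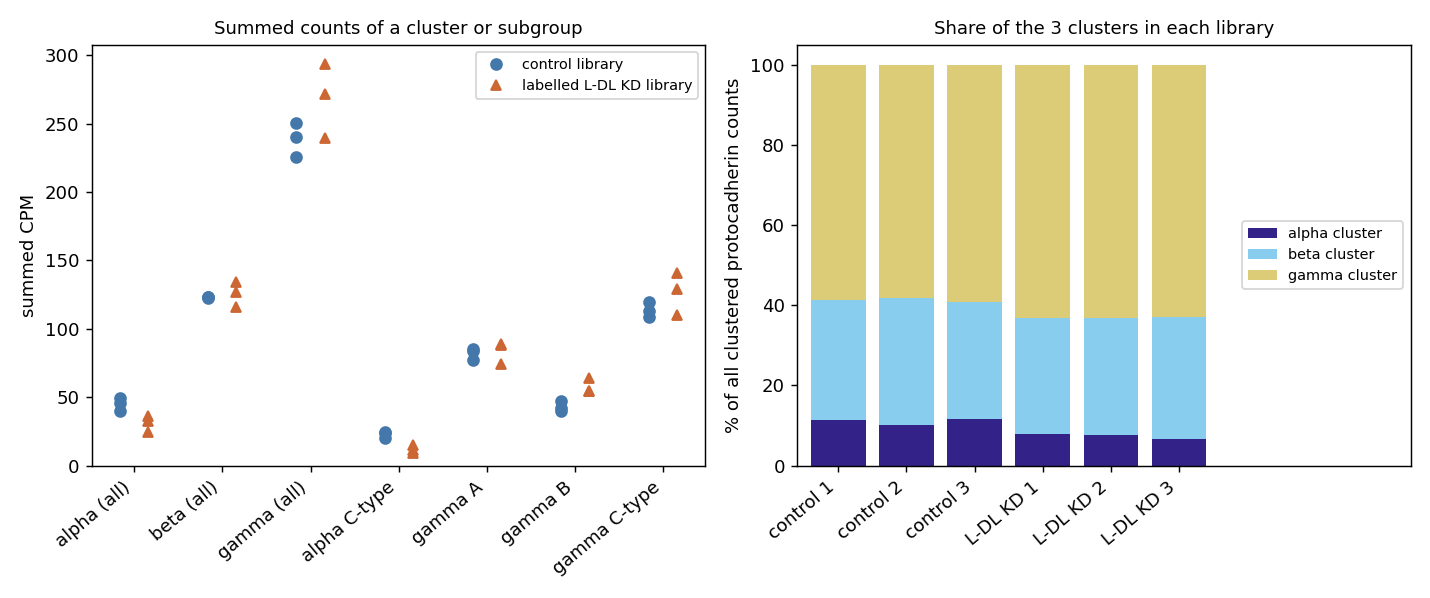
Left, summed CPM (linear axis from 0) of the clusters and their subgroups in each library, control as circles and libraries labelled L-DL KD as triangles. Right, share of the alpha, beta and gamma clusters in all clustered protocadherin counts of each library, with the alpha share between 10.2 and 11.6% in the controls and between 6.53 and 7.82% in libraries labelled L-DL KD.

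The constant exons of the gamma cluster, which gene counting passed over, were seen in the counts of reads across splice junctions. The splicing table listed 3 events under clustered protocadherin symbols, all of them at these exons. Constant exon 1 (59 nt, chr18:37825021-37825079) and constant exon 2 (89 nt, chr18:37833265-37833353) were each listed as an exon that can be skipped. Reads skipping them numbered 0 to 2 per library in the controls and 0 in every library labelled L-DL KD, too few to test. Reads including constant exon 2 numbered 1230, 1324 and 1151 in the controls and 1627, 1595 and 1396 in libraries labelled L-DL KD.

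Per 1000000 junction counts, inclusion reads of constant exon 2 came to 177.8 ± 8.34 (SD, n = 3) in the controls and 200.7 ± 5.51 in libraries labelled L-DL KD, a difference of 0.18 on the log2 scale with groups that did not overlap. These reads come from all gamma members, and the summed variable exon counts of the gamma cluster differed by 0.17 on the log2 scale as well. Inclusion reads of constant exon 1 listed under Pcdhgc3 differed by 0.27 on the log2 scale (73.6 ± 3.32 and 88.7 ± 3.73 per 1000000 junction counts). They also hold the junction from constant exon 1 to constant exon 2, which gamma members share, so they are not of Pcdhgc3 alone.

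The other event listed constant exons 1 and 2 as mutually exclusive behind the variable exon of Pcdhgc3. Since at most 2 reads per library skipped either exon, its 2 sets of reads do not stand for separate spliced forms. The first set, which holds the junction from the variable exon of Pcdhgc3 to constant exon 1, had 80, 106 and 81 reads in the controls and 166, 132 and 136 in libraries labelled L-DL KD. That was 12.8 ± 1.88 and 18.9 ± 2.21 per 1000000 junction counts (SD, n = 3), and the groups did not overlap. The other set, which holds the junction from constant exon 2 to constant exon 3 of gamma members in general, had 492, 542 and 490 reads in the controls and 651, 666 and 614 in libraries labelled L-DL KD. The balance of the sets did not pass the test (log2 odds change 0.36, adjusted p = 0.585, edgeR), where 0.255% of all 18829 events tested did.

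The regulators of promoter choice were read from a list of 24 genes. CTCF and cohesin hold chosen promoters next to enhancers, and DNA methylation keeps others silent. In libraries labelled L-DL KD 2 of the 24 rose, 3 fell and 19 did not pass the test, with a median log2 fold change of 0.07. Over all genes 15.6% rose and 15.0% fell, so the list held no larger share of calls. Of the regulators that fell, Pds5b, which acts on cohesin, had 147.0 ± 4.96 CPM in the controls (SD, n = 3). It had 101.7 ± 9.96 CPM in libraries labelled L-DL KD (adjusted p = 0.00273, edgeR). Wiz, a zinc finger protein of chromatin, had 55.2 ± 2.07 and 37.6 ± 6.33 CPM (adjusted p = 0.00977, edgeR). The regulators that rose were the DNA methyltransferase Dnmt3b and the repressor Rest, both named after their values were seen. Ctcf itself had 78.1 ± 2.90 and 73.3 ± 1.52 CPM, with a log2 fold change of -0.09 and an adjusted p of 0.317 (edgeR).

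Of 26 genes for binding partners, signalling and shedding of clustered protocadherins, 9 rose, 6 fell and 11 did not pass the test, with a median of 0.06. Of all genes tested, 15.6% rose and 15.0% fell. Marcks, an actin-binding protein downstream of gamma protocadherins, rose from 144.0 ± 7.46 to 272.7 ± 10.9 CPM (SD, n = 3, adjusted p = 0.00017, edgeR). Wasf2, of the WAVE complex that builds branched actin, rose from 56.2 ± 2.08 to 106.5 ± 9.58 CPM (adjusted p = 0.000284, edgeR). Ptk2b, the kinase Pyk2 that protocadherin tails bind and hold in check, fell from 907.9 ± 16.3 to 632.2 ± 4.30 CPM (adjusted p = 0.000817, edgeR). Marcks and Wasf2 are also made by microglia, whose markers were higher in the same libraries, and the part of this in their rise was not tested.

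The non-clustered protocadherins, which lie elsewhere in the genome and are each expressed from a gene of their own, were a list of 12. Of 11 tested, 2 rose and 3 fell, against 15.6% and 15.0% of all genes, with a median log2 fold change of -0.01. Pcdh8, an activity-regulated protocadherin that removes cadherins from synapses, rose from 78.4 ± 2.85 to 129.6 ± 20.3 CPM (SD, n = 3, adjusted p = 0.0026, edgeR). Pcdh19, an epilepsy gene, fell from 59.0 ± 6.70 to 36.9 ± 5.17 CPM (adjusted p = 0.00564, edgeR). Pcdh10 fell from 91.3 ± 4.33 to 71.2 ± 3.77 CPM (adjusted p = 0.00749, edgeR). Apart from Pcdh12 and Pcdh18, these genes have more counts than most clustered members. The difference between the 2 families in the share of genes called was not tested.

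**Figure D5:**
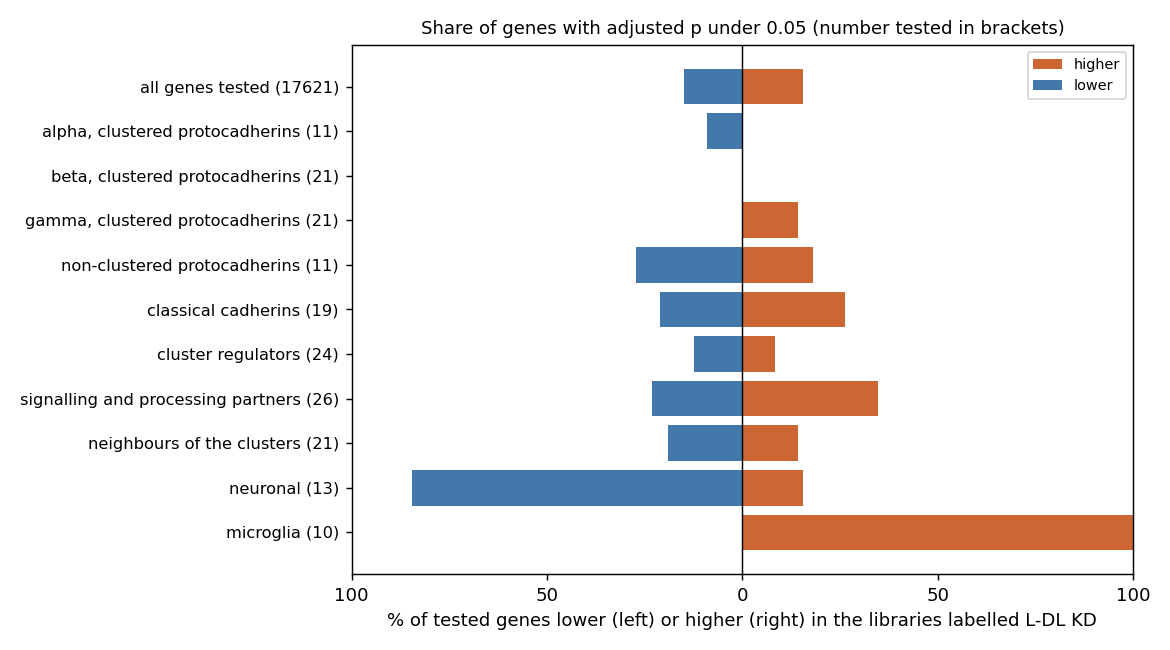
Share of tested genes with an adjusted p under 0.05 (edgeR), lower to the left and higher to the right, for all genes, the 3 clusters and the lists, with the number tested in brackets. The alpha, beta and gamma clusters show 1 lower, 0 and 3 higher members, beside 15.0% lower and 15.6% higher over all genes.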

How the data were processed

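RNA-seq of hippocampus was measured in 6 libraries, 3 control and 3 labelled L-DL KD. The authors deposited gene-level read counts, not normalized, made from 150 nt pairs aligned to GRCm38 with Ensembl release 90. The authors also deposited junction counts from rMATS (version 4.1.0). The submitters' processing notes name Bowtie 1.1.2, HISAT2 2.1.0 and HTSeq 0.6.1, with no role given. Counts of reads that fit several genes are usually dropped by such counting, which bears on members with shared exons. Columns of p-values, FDR and PSI differences, the authors' own comparison, were not used. Gene models, lengths and shared bases came from GENCODE M21.

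The members and gene lists were chosen with earlier results of these data known. Counts were scaled by TMM to CPM and tested with edgeR (version 4.0.16, R version 4.3.3) over 17621 genes that reached 10 counts in 3 or more libraries, with Benjamini-Hochberg adjustment. Standard errors and 95% intervals came from that fit. Levels per length are CPM divided by the kb of exon that no other gene shares. Splicing was tested with edgeR on the junction counts of both forms, where events averaged 20 or more counts per library, and 1 or more of each form. In that table sample 1 was read as L-DL KD, from the definition of the PSI difference in the methods, and libraries carry no numbers. Both scripts were tested on simulated data. Alternatives were DESeq2 (version 1.42.0), limma (version 3.58.1) for splicing, scaling by library totals, stricter and no filters, a replicate block, and single libraries left out.

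Named members were the C-types, the 3 most abundant of the alpha, beta, gamma A and gamma B members, and those called. Abundance was taken as the mean CPM over all 6 libraries. From each list up to 3 called genes with the lowest adjusted p were named, except that 1 is not reported here. Library totals of 16052529 to 17913064 counts set the precision, and a member with 10 counts is poorly measured. Summaries used pandas (version 2.3.3) and figures matplotlib (version 3.10.9). No sequence is printed.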

Additional observations from a re-analysis of the deposited data

How the results depend on the processing

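The same 4 members were called with DESeq2, with scaling by library totals, with no filter on low counts, with a minimum of 50 counts and with a replicate block. With single libraries left out, 3 to 6 members were called, of which alpha held 1 to 2, beta 0 to 2 and gamma 2 to 3, beside 3498 to 6477 of all genes. Without L-DL KD replicate 1, Pcdha6, Pcdhb8 and Pcdhb12 were called lower as well and Pcdhgb6 was not called. The log2 ratio of the alpha sum was -0.53, and -0.19 without its 2 highest members, -0.17 without the C-types and -0.65 to -0.39 with a library left out. The median log2 fold change of the alpha members ran from -0.47 to 0.045 with a library left out. The sign turned with a library left out for Hnrnpdl (-0.127 to 0.15, with -0.127 without L-DL KD replicate 1 and -0.001 without control replicate 3), Pcdhgc5 (-0.177 to 0.124), Pcdha9 (-0.241 to 0.179), Pcdha5 (-0.374 to 0.071), Pcdhga12 (-0.166 to 0.084) and Pcdhga6 (-0.170 to 0.120). It also turned with scaling by library totals for Pcdha9 (0.017) and Pcdhga12 (0.007). The cause was not tested. No splicing event of a member passed under any alternative. Scaling by library totals moved the higher share of all calls from 51.0 to 56.1%.

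Same-numbered libraries deviated together with correlations of 0.0535, 0.127 and -0.107. These do not show that the numbers pair the samples, and with 3 libraries per group they cannot exclude it. The fit with the replicate block called 4 members and 4635 of all genes, against 5379 without it. No paired analysis was possible for splicing because its columns carry no numbers.

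Low counts limit the alpha members most, with a median of 35.0 counts per library against 88.3 in beta and 128.0 in gamma.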

Other observations

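In all 3 libraries labelled L-DL KD, 5 of 21 tested gamma members were higher than in all controls. This share was near the 23.8% of all genes. Of these 5 members, 4 lay next to each other, and Pcdhgc3 lay apart from them. In genome order, Pcdhga9, Pcdhgb6, Pcdhgb7 and Pcdhga11 followed each other, with only the uncounted Pcdhga10 between them, at log2 fold changes of 0.45, 0.55, 1.18 and 0.47. The next member on one side was Pcdhgb5 at -0.03 and on the other Pcdhgb8 at 0.16, and the groups overlapped in both. This run was noticed after the values were seen and was not tested. Over the gamma members, log2 fold change and position in the cluster had a Spearman correlation of 0.405 (n = 21), against -0.309 over alpha (n = 11) and -0.051 over beta (n = 21). Points of one cluster share libraries and neighbouring sequence. Log2 fold change and mean CPM had a Spearman correlation of 0.321 over the 53 tested members, and log2 fold change and unshared exon length one of 0.028.

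Genes that flank the clusters or lie between them went in both directions, with 3 of 21 tested higher and 4 lower, a share near the 30.5% of all genes called. Cd14, a receptor of myeloid cells, rose from 5.72 ± 0.863 to 20.2 ± 5.74 CPM (SD, n = 3, adjusted p = 0.000972, edgeR) and Arap3 rose from 16.5 ± 1.85 to 29.9 ± 1.96 CPM (adjusted p = 0.00153, edgeR). Diaph1, an actin-nucleating formin, fell from 83.3 ± 6.46 to 55.6 ± 5.35 CPM (adjusted p = 0.00285, edgeR). Taf7, between the beta and gamma clusters, had 7.41 ± 0.653 and 8.09 ± 1.16 CPM and did not pass the test (adjusted p = 0.611, edgeR).

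Of 19 other cadherins and catenins, 5 rose and 4 fell, against 15.6% and 15.0% of all genes. Cdh13, a cadherin anchored in the membrane by lipid, rose from 33.4 ± 4.12 to 75.8 ± 13.3 CPM (SD, n = 3, adjusted p = 0.000937, edgeR). Cdh8, a cadherin of synapses, fell from 59.7 ± 2.18 to 40.8 ± 3.29 CPM (adjusted p = 0.00215, edgeR). Ctnnb1, which encodes beta-catenin, rose from 347.1 ± 4.57 to 466.2 ± 20.6 CPM (adjusted p = 0.00216, edgeR).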
